A study of Mus musculus with 201 samples.

Results

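The splicing factor and hnRNP genes of the mouse hippocampus were followed through 138 of the 45037 probe sets tested on the Affymetrix M430 2.0 array. Members were all probe sets annotated with 1 gene symbol beginning with Hnrnp, Srsf, Sf3a, Sf3b or Snrp, with Snrpn left out, and they stood for 46 of 18193 genes. The choice used symbols and no measured value. There were 58 probe sets of 19 hnRNP genes, 33 of 10 SR protein genes, 30 of 9 SF3 genes and 17 of 8 snRNP genes. Probe sets with several symbols, among them those of Hnrnpa3, Snrpa, Snrpd1 and Snrpd2, were not members.

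The RNA came from pools of hippocampi, usually 1 male and 1 female pool per strain, on 201 arrays of 100 strains. The wild-derived inbred strains CAST/EiJ, PWD/PhJ, PWK/PhJ and WSB/EiJ were on 7 arrays. The BXD recombinant inbred strains, bred from C57BL/6J and DBA/2J, numbered 29 in the earlier set on 58 arrays and 39 in the later set on 76 arrays, and the 13 CXB strains, whose parents were BALB/cByJ and C57BL/6ByJ, filled 27 arrays. The reciprocal hybrids B6D2F1 and D2B6F1 were on 6 arrays and 13 classical inbred strains on 27. DBA/2J had 2 arrays, both of female pools, and C57BL/6J had 3, from 1 female and 2 male pools. Pools held 1 to 4 mice, aged 41 to 196 days on average (median 62). Male and female pools of a strain held different animals, while for pools of the same sex this is not stated, and p-values measure only the spread among these pools. In whole hippocampus, fewer cells of a type and less RNA per cell cannot be told apart. Whether strain differences in the sequence under a probe alter its signal was not tested.

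The spliceosome removes introns from pre-messenger RNA. U1 snRNP recognises the start of an intron and U2 snRNP its branch point; the SF3A and SF3B complexes are the parts of U2 snRNP that hold the branch point, and the Sm proteins form a ring around the small nuclear RNAs. SR proteins mostly bind exonic enhancers and recruit the spliceosome, while hnRNPs coat nascent transcripts and often repress exons. Many SR protein and hnRNP genes regulate their own RNA through retained introns or exons that lead to decay, so that probe sets of 1 gene can measure different transcripts.

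Values are PDNN scores, a log-like summary per probe set for which no source used here names a base. Differences are therefore in PDNN units and no fold change was computed. A strain level is the fitted level of a strain after adjustment for sex and for the 7 processing batches. The mean over an array was 8.06 to 8.10 PDNN units and its SD 0.633 to 0.801, with present calls of 43.3 to 55.3% and ACTB 3'/5' signal ratios, a measure of RNA integrity, of 0.9 to 4.65. For 6 arrays the file header named another strain, sex or batch than the labels did. Array SD moved with the members: the mean of all 138 members ran from 8.77 to 9.08 PDNN units over the 199 fitted arrays and correlated with array SD (r = 0.911, rho = 0.904, permutation p = 1e-05 for both, the smallest that 100000 permutations can give). The r was 0.904 without the 2 arrays of the most extreme SD and 0.863 to 0.960 within batches. It was 0.967 for the mean of all probe sets of mean level 8 or more, so the relation was shared with other bright probe sets. Array means were nearly equal, so a larger SD raises bright probe sets by construction. The relation and its p-values are therefore no result about the members.

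The members gave bright signals. Their mean level was 7.37 to 10.4 PDNN units with a median of 8.97, against a median of 7.86 over all probe sets. The brightest probe set of each gene ran from 8.43 to 10.4 with a median of 9.45. Levels of different probe sets also depend on the probes, so the ranks that follow order signals, not transcript numbers.

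Among the hnRNPs, the highest signals belonged to Hnrnpk, a KH-domain protein that binds C-rich RNA, at 10.44 and to Hnrnpa2b1, which also carries messenger RNA along dendrites, at 10.40. Hnrnph1, which binds G-rich sequence, followed at 10.18, Hnrnpu, a nuclear scaffold protein, at 10.17 and Hnrnpdl, a relative of the AU-rich-element binder Hnrnpd, at 10.17. Between 9.5 and 10 lay Hnrnpul2 (9.87), Hnrnpc, a poly-U binder that packages nascent RNA (9.86), Hnrnph2 (9.83), Hnrnpa0 (9.83), Hnrnpf (9.69), Hnrnpr (9.63), Hnrnpab (9.61) and Hnrnpul1 (9.58). Hnrnpd had 9.43, Hnrnpll, a regulator of alternative exons, 9.26, Hnrnpa1, a classical exon repressor, 9.11, Hnrnpm 9.06 and Hnrnph3 9.02. Hnrnpl, which binds CA repeats, was the dimmest hnRNP at 8.45.

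The SR proteins covered a similar range. Srsf5 led at 9.95, followed by Srsf11 at 9.68, Srsf1, the founding member of the family, at 9.66, and Srsf3, its smallest typical member, at 9.59. Srsf9 had 9.38, Srsf2 9.35, Srsf6 9.34 and Srsf4 8.98. Srsf10, which represses splicing when dephosphorylated, had 8.55 and its close relative Srsf12 had 8.43.

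Of the SF3 subunits, Sf3b1, which clamps the branch-point helix, was brightest at 9.87. Sf3b6, which contacts the branch adenosine, had 9.73, Sf3b2 9.72 and Sf3b5 9.36. Sf3a2 had 8.99, Sf3b3, a scaffold of the SF3B core, 8.83, Sf3b4 8.71, Sf3a3 8.51 and Sf3a1 8.49. Of the snRNP genes, the Sm proteins Snrpe, Snrpg and Snrpb had 9.67, 9.59 and 9.48, the U1 protein Snrpc 8.97, the U2 protein Snrpb2 8.95, the Sm proteins Snrpf and Snrpd3 8.92 and 8.62, and the U2 protein Snrpa1 8.54. The plot of levels by gene shows that most genes had dimmer probe sets well below their brightest.

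**Figure D1:**
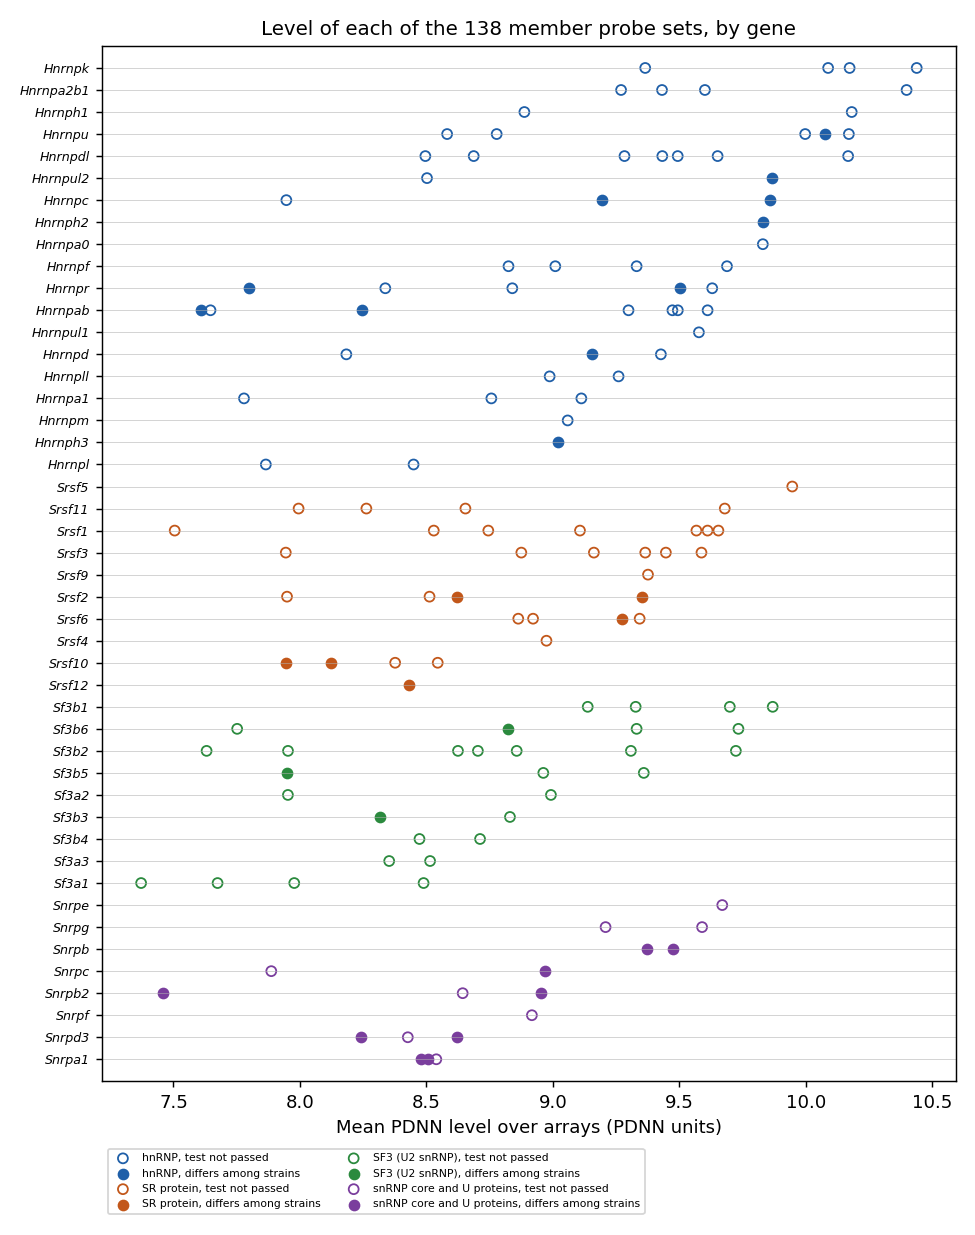
Mean PDNN level over arrays (x axis, PDNN units) of each of the 138 member probe sets, 1 row per gene, coloured by family; filled points passed the test of strain differences and open points did not. Levels run from 7.37 to 10.4, and the 29 filled points lie at bright and dim levels of all 4 families.

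The first comparison asked which members differed among the 100 strains. By limma's moderated F-test, 29 of 138 member probe sets (21%), of 20 genes, had an adjusted p under 0.05, against 21.6% of all probe sets. The share was thus near that of the array. Their median intraclass correlation, the share of variance lying between strains, was 0.103, against 0.0983 over all probe sets. Among probe sets of mean level 8 or more, 24 of 117 members (20.5%) were called, against 31.3% of the array; below that level it was 5 of 21 (23.8%), against 14.7%.

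Srsf2, an SR protein whose RNA is under strong self-regulation, had the widest strain levels among the calls. Its probe set 1452439_s_at ran from 8.14 in BXD23 over a median of 8.66 to 9.09 in 129S1/SvImJ (SD over strains 0.192, adjusted p = 5.1e-08, limma). The single arrays were 8.49 and 7.91 in BXD23 and 9.33 and 8.81 in 129S1/SvImJ, so that arrays of 1 strain lay well apart. Here and below, the lowest and highest strains were picked by these same levels, so a gap between their arrays is no separate support. A second probe set, 1427504_s_at, was also called (adjusted p = 0.0076), with its highest level, 9.55, in BALB/cJ.

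Hnrnpc, probe set 1418693_at, followed with an SD of 0.167 (adjusted p = 5.2e-08), from 8.77 in BXD14 over a median of 9.20 to 9.53 in LG/J. The arrays were 9.06 and 8.75 in BXD14 and 9.54 and 9.60 in LG/J. Both LG/J arrays were above both BXD14 arrays. Srsf12 (1437168_at) ran from 7.75 in CAST/EiJ over a median of 8.45 to 8.75 in NOD/LtJ (SD 0.154, adjusted p = 0.0075), with 7.78 on the 1 array of CAST/EiJ and 8.72 and 8.89 on those of NOD/LtJ.

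Srsf10 was called through 2 probe sets. Probe set 1449121_at had a level of 7.71 in C57BL/6J, 7.94 in the median strain and 8.82 in CAST/EiJ (SD 0.134, adjusted p = 3.9e-05). The other, 1418526_at, was lowest in CXB9 at 7.94 and highest in PWD/PhJ at 8.56 (adjusted p = 1.5e-04).

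Among U2 and Sm proteins, Snrpb2 (1452422_a_at) ran from 8.67 in BXD65a to 9.24 in AKR/J (SD 0.129, adjusted p = 1.0e-08), the smallest adjusted p of all members. Snrpd3 (1449629_s_at) was lowest in CAST/EiJ at 7.78, against a median of 8.62 and a maximum of 8.82 in BXD79 (adjusted p = 2.6e-08). Snrpc (1416197_at) varied less, with an SD of 0.0882, but its arrays agreed closely within strains (intraclass correlation 0.564, adjusted p = 2.3e-08). Snrpa1 was called through 2 probe sets, and for both the highest strain was NOD/LtJ, at 9.03 and 8.78. Snrpb was called through both of its probe sets (adjusted p = 0.032 and 0.033).

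Sf3b3 (1430075_at) ran from 7.63 in CAST/EiJ to 8.50 in BALB/cByJ (SD 0.127, adjusted p = 8.2e-07). Each of these 2 strains had only 1 array, at 7.71 and 8.41. The other, brighter Sf3b3 probe set (mean 8.83) was not called. The other SF3 calls were smaller, Sf3b5 (1439370_x_at) with an SD of 0.0863 and Sf3b6 (1436681_x_at) with an SD of 0.0778. Of the hnRNPs, Hnrnpab (1448144_at) had an SD of 0.132 and ran from 7.93 in BXD65a to 8.62 in PWK/PhJ. In BXD65a its arrays were 8.44 and 7.57, so that the low strain level there came from 1 of 2 arrays. Hnrnpr (1437526_x_at, SD 0.145), Hnrnph2 (0.124), Hnrnpd (0.113), Hnrnpul2 (0.0919), Hnrnpu (1423050_s_at, 0.0873) and Hnrnph3 (0.0733) were called as well, and so was Srsf6 (1416720_at, 0.0826). The Hnrnpr call had an adjusted p of 0.049 and was lost in 22 of 35 other settings.

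A wide range of strain levels did not always come with a call. Hnrnpl (1424101_at) had the largest SD of strain levels of all members, 0.321, from 7.85 in BXD86 to 9.39 in PWD/PhJ, but its residual SD between arrays of 1 strain was 0.370 and its adjusted p was 0.28. Hnrnpu (1450849_at, SD 0.258, adjusted p = 0.45) and Snrpd3 (1422884_at, SD 0.217, adjusted p = 0.73) were similar, with residual SDs of 0.323 and 0.292. Snrpc had a residual SD of 0.0633.

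The second comparison asked which members differed within the recombinant panels. In the 68 BXD strains 8 probe sets (5.8%) of 6 genes were called, against 6.95% of all probe sets, and 4 of the genes, Snrpc, Srsf2, Snrpb2 and Hnrnpc, were called under every alternative processing tried. The share was near the background.

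Snrpc, the U1 subunit that stabilises pairing with the start of the intron, had the smallest adjusted p of the panel (2.6e-08, intraclass correlation 0.603). Its level was 8.81 in BXD11, 8.97 in the median strain and 9.16 in BXD90. The arrays were 8.75 and 8.86 in BXD11 and 9.21 and 9.09 in BXD90, the strains picked as lowest and highest. DBA/2J had a level of 8.87 and C57BL/6J of 9.11, and 58 of the 68 BXD strains lay between these parents, 6 above and 4 below both.

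Srsf2 (1452439_s_at) showed another distribution. Its BXD levels ran from 8.14 in BXD23 over 8.60 to 8.87 in BXD13 (SD 0.197, adjusted p = 1.5e-07), while the parents had similar levels, 8.60 in DBA/2J and 8.50 in C57BL/6J. As many as 35 strains lay above both parents and 28 below both, with 5 between. Snrpb2 (1452422_a_at) ran from 8.67 in BXD65a over 8.90 to 9.21 in BXD13 (adjusted p = 1.2e-06), with 8.86 in DBA/2J and 9.00 in C57BL/6J. Here 21 strains were above both parents, 25 below and 22 between. A dimmer Snrpb2 probe set, 1452131_at, was also called (adjusted p = 7.5e-04).

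Hnrnpab (1448144_at), which shuttles messenger RNA between nucleus and cytoplasm, also had most BXD levels between those of the parents. Its BXD levels ran from 7.93 over 8.19 to 8.46 in BXD51 (adjusted p = 3.8e-05), DBA/2J had 8.04 and C57BL/6J 8.40, and 56 strains lay between them. Hnrnpc (1418693_at) ran from 8.77 in BXD14 over 9.19 to 9.45 in BXD2 (SD 0.133, adjusted p = 0.0043), with 9.17 in DBA/2J, 8.98 in C57BL/6J, and 37 strains above both. Sf3b5 (1439370_x_at, adjusted p = 0.0068) and a second Hnrnpab probe set, 1431349_at (adjusted p = 0.015), completed the calls. Without BXD14, which was lowest of the 68 strains in 40 members (29%), in 17.6% of probe sets of mean level 8 or more and in 9.11% of all, 7 members were called, against 6.72% of all probe sets. After quantile normalization BXD14 was lowest in 23.9% of members, against 13.7% of probe sets of mean level 8 or more. With the BXD panel fitted alone there were 13, against 8.38% of all probe sets. Both of these alternatives, and their counterparts for the CXB panel, were chosen after the data were seen.

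In the 13 CXB strains 5 probe sets (3.62%) of 3 genes were called, against 4.2% of all probe sets. Hnrnpc had the widest panel (SD 0.224, intraclass correlation 0.726, adjusted p = 1.3e-06), from 8.79 in CXB12 over 9.20 to 9.49 in CXB2. Its arrays were 8.77 and 8.69 in CXB12 and 9.53 and 9.34 in CXB2, the strains picked as lowest and highest. The parents, BALB/cByJ at 9.29 (from 1 array) and C57BL/6ByJ at 8.96, lay inside that range.

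Hnrnpa2b1 was called through 3 probe sets, of which 1433829_a_at ran from 9.28 in CXB11 to 9.87 in CXB2 (SD 0.172, adjusted p = 0.017). Hnrnph2 ran from 9.53 in CXB3 to 10.0 in CXB2 (adjusted p = 0.037). In all 5 calls the highest strain was CXB2, which was highest of the 13 CXB strains in 75 of 138 members (54.3%), in 41.8% of all probe sets of mean level 8 or more and in 20.6% of all probe sets. CXB8 was lowest in 53 members (38.4%), in 19.3% of probe sets of mean level 8 or more and in 10% of all. The array SDs were 0.789 and 0.722 in CXB2 and 0.657 and 0.642 in CXB8, and the part of array scale in these results was not tested directly. After quantile normalization, which gives all arrays 1 distribution, CXB2 was highest in 46 members (33.3%, against 21.6% at mean level 8 or more) and CXB8 lowest in 30 (21.7%, against 11.1%). Without CXB2 only the Hnrnpc call stayed (adjusted p = 8.0e-05), and with the CXB panel fitted alone no member was called by limma, with 15 at an unadjusted p under 0.05 and an adjusted p of 0.18 for Hnrnpc. In that fit 1.09% of all probe sets were called. Its intraclass correlations were 0.566 for Hnrnpc, 0.557 for Hnrnpa2b1 1433829_a_at and 0.622 for Hnrnpa2b1 1434047_x_at, against 0.726, 0.512 and 0.516 with all strains in the fit. Without the first CXB7 array 13 members were called, against 7.61% of all probe sets.

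**Figure D2:**
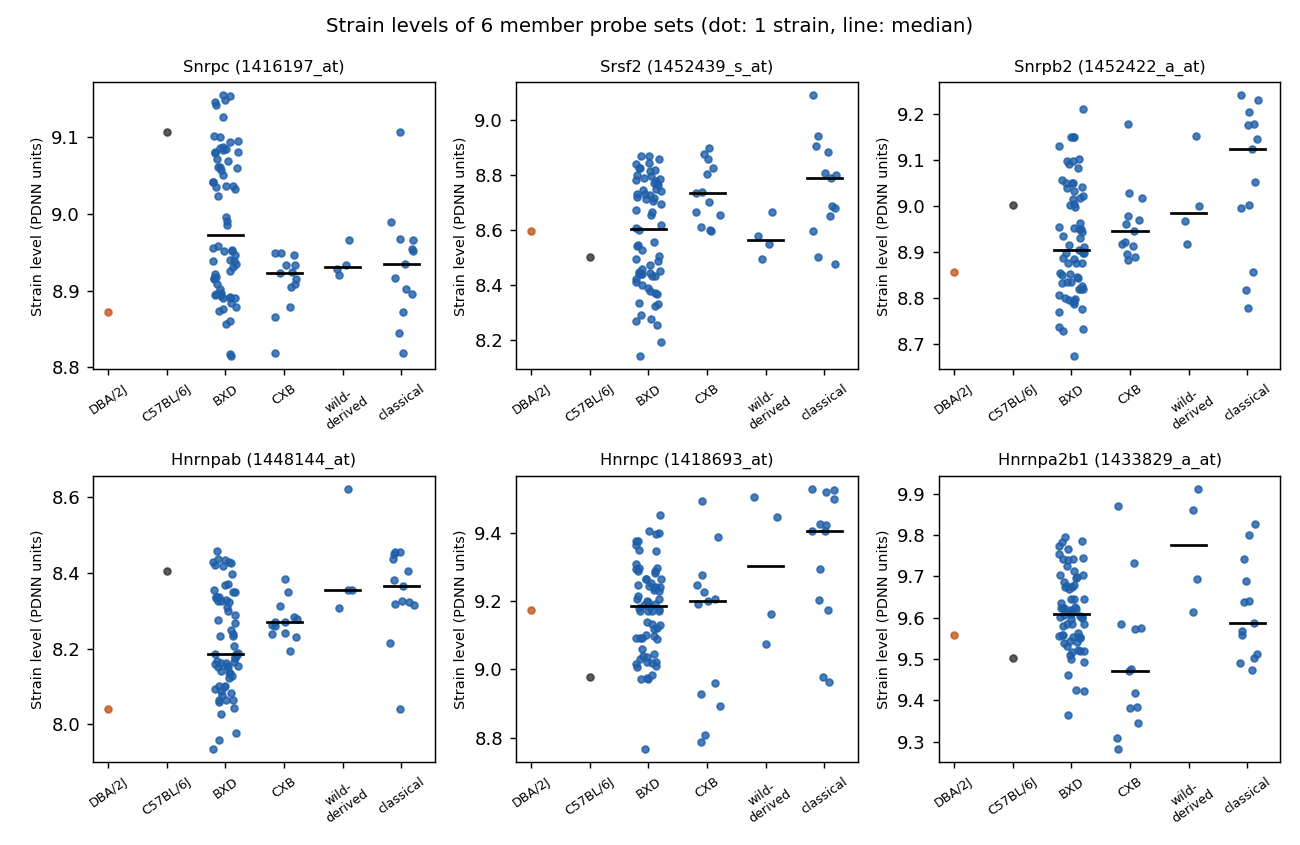
Strain levels (y axis, PDNN units) of 6 member probe sets in DBA/2J, C57BL/6J, 68 BXD, 13 CXB, 4 wild-derived and 13 classical strains, the last including both parents; each dot is 1 strain and each line a median. Of the 68 BXD strains 58 lie between the parents for Snrpc and 56 for Hnrnpab, and 5 do for Srsf2 and 22 for Snrpb2.

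The promoters of the 4 genes called in the BXD panel under every setting are shown because their strain levels held best across processing. The sequences are RefSeq's, build GRCm38.p6, each a window of 300 bases around the gene start read on the gene's strand. Capitals mark CCAAT or its reverse complement ATTGG, the box bound by NF-Y, and CGGAAG or its reverse complement CTTCCG, the core bound by ETS factors. The motifs were searched on both strands and do not overlap each other. The windows are chr14:52103972-52104271 on the minus strand for Hnrnpc, chr2:143062819-143063118 on the plus strand for Snrpb2, chr17:27839837-27840136 on the plus strand for Snrpc and chr11:116853045-116853344 on the minus strand for Srsf2.
Hnrnpc: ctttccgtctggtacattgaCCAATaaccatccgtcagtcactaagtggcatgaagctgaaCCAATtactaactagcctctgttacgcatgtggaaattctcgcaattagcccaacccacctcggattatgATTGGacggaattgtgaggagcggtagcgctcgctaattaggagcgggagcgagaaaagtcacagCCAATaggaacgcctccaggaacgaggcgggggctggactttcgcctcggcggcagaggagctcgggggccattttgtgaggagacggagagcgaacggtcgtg
Snrpb2: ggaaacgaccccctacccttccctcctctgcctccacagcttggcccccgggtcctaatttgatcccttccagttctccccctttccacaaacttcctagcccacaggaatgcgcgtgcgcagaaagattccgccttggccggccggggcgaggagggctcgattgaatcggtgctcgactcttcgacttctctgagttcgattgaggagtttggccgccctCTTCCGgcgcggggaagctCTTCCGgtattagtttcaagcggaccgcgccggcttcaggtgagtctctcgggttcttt
Snrpc: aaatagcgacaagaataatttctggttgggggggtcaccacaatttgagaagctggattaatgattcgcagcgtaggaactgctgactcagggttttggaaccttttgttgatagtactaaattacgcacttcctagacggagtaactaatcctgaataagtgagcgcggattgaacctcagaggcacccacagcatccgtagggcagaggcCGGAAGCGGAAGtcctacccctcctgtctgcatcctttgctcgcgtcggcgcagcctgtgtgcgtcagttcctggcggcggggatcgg
Srsf2: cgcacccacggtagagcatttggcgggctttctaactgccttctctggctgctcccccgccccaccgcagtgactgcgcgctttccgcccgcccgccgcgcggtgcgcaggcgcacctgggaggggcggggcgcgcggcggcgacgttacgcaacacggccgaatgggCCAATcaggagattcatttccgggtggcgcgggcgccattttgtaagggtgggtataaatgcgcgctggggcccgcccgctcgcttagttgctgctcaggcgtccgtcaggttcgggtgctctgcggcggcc
Hnrnpc had 4 CCAAT boxes and no CGGAAG, Srsf2 had 1 CCAAT box and no CGGAAG, and Snrpb2 and Snrpc each had 2 CGGAAG motifs and no CCAAT. RefSeq windows matched 41 of the 46 member genes, with 54 windows in all. CCAAT was in 26 of these 54 (48.1%), against 37.4% of all 32851 promoter windows, and CGGAAG in 28 (51.9%), against 16.9%. These matches describe letters in the windows and were not tested as binding sites.

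For the 3 called members with the widest strain levels, the 5 most similar other probe sets were taken by Pearson r over the 100 strain levels. Gene order came from RefSeq's GRCm38.p6 table. Hnrnpc (1418693_at) was most like Armh4 (r = 0.912), Ttc5 (0.745), Ktn1 (0.740), Supt16 (0.731) and Apex1 (0.707), all on the chromosome of Hnrnpc. In that order 70, 41, 79, 1 and 35 protein-coding genes lay in between. Srsf2 (1452439_s_at) was most like Itgb4 (0.606, 31 between), Ttyh2 (0.578, 84 between) and its adjacent gene Mfsd11 (0.530), all on its chromosome. Then came Fgfr1op2 (0.488) and Eif4h (0.483) on others. The promoter windows of Srsf2 and Mfsd11 lie on opposite strands with 167 bases between them. Srsf12 was most like Klhl24 (0.881), Trnt1 (0.820), Nae1 (0.820), Ube2v2 (0.813) and Tmem30a (0.810), none on its chromosome.

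Snrpb2 and Snrpc were added after their values were seen. Snrpb2 (1452422_a_at) was most like Dstn (r = 0.884, 3 protein-coding genes between), Esf1 (0.877, 5 between), Rbbp9 (0.803), Snx5 (0.747) and Ism1 (0.724), all on its chromosome. Snrpc was most like Itpka (0.771), Ufc1 (0.743), Rbm42 (0.742), Atf4 (0.737) and B4galt3 (0.702), none on its chromosome. Hnrnpc and Snrpb2 thus moved with genes of their own chromosome, and Snrpc and Srsf12 with genes of others. Strains of a recombinant panel share long chromosome segments, and probe sets share arrays, so these r values are descriptions.

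The third comparison set DBA/2J against C57BL/6J. By limma 7 of 138 member probe sets (5.07%) were called, against 7.24% of all probe sets, 4 of them higher in DBA/2J (4.61% of all probe sets were) and 3 lower (2.63%). The share was near the background. In none of the 7 did the arrays of the 2 strains overlap. Each call was 1 probe set of a gene with 2 to 7 probe sets, and the others of that gene were not called.

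Sf3b1 (1418562_at) had the largest difference. It had 9.73 and 9.98 PDNN units in DBA/2J, against 9.27, 9.11 and 9.10 in C57BL/6J. All arrays of DBA/2J were higher, and the fitted difference was 0.870 ± 0.176 (SE, adjusted p = 2.5e-04). Hnrnpr (1438807_at), which binds and localises messenger RNA in neurons, had 8.22 and 8.71 in DBA/2J, against 8.17, 7.96 and 8.15 in C57BL/6J. The groups did not overlap but the gap was narrow, and the fitted difference was 0.531 ± 0.169 (adjusted p = 0.035).

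Sf3b3 (1430075_at) had 8.48 and 8.40 in DBA/2J, against 8.22, 7.97 and 8.27 in C57BL/6J (difference 0.339 ± 0.0869, adjusted p = 0.0054). Srsf10 (1449121_at) had 8.12 and 8.03 in DBA/2J, against 7.80, 7.68 and 7.79 in C57BL/6J (0.338 ± 0.0963, adjusted p = 0.015). Both were higher in each DBA/2J array.

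The 3 lower members were Hnrnpab, Snrpc and Snrpd3. Hnrnpab (1448144_at) had 8.22 and 7.99 in DBA/2J, against 8.30, 8.54 and 8.25 in C57BL/6J (difference -0.363 ± 0.0978, adjusted p = 0.0088). Snrpc (1416197_at) had 8.93 and 8.81 in DBA/2J, against 8.98, 9.20 and 9.12 in C57BL/6J (-0.236 ± 0.0599, adjusted p = 0.0049). Snrpd3 (1422885_at) had 8.16 and 8.16 in DBA/2J, against 8.27, 8.35 and 8.39 in C57BL/6J (-0.186 ± 0.0542, adjusted p = 0.018). For each, all DBA/2J arrays were below all C57BL/6J arrays.

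Both strains had 1 array in batch 5, and the differences there were 0.881 for Sf3b1, 0.133 for Sf3b3 and -0.307 for Snrpc. Against the 1 female C57BL/6J array alone they were 0.583 for Sf3b1 and -0.107 for Snrpc. As the arrays of the strains did not overlap in any of the 7, the direction of these differences was fixed in advance. Only their sizes are informative. The calls rested on few arrays. Without the second C57BL/6J array 1 member was called (Sf3b1), against 4.18% of all probe sets. Fewer members were also called without either DBA/2J array, which left 1 array of that strain. Quantile normalization gave 12 calls, 4 higher and 8 lower, against 8.72% of all probe sets. RMA values gave 4, all lower, against 4.47%. However, the 3 C57BL/6J columns of the RMA values were most like BALB/cJ arrays, so that count may not compare these 2 strains.

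**Figure D3:**
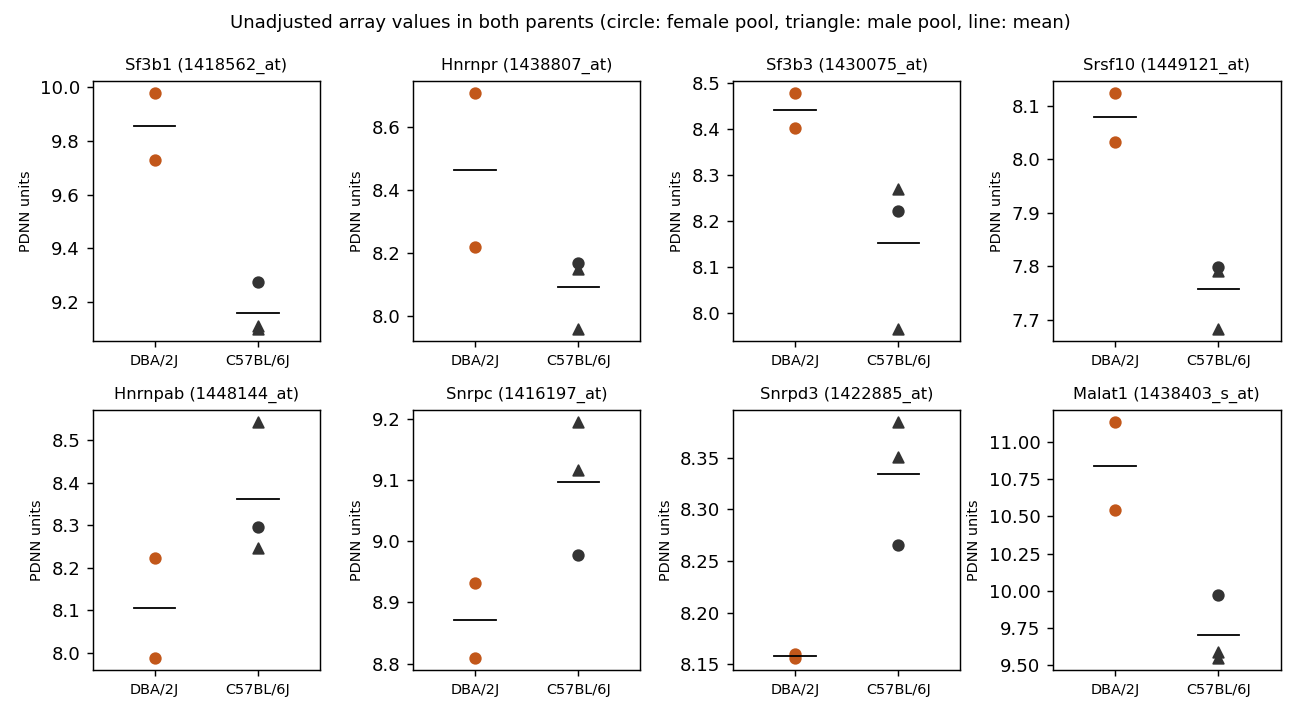
Unadjusted array values (y axes, PDNN units) of the 7 called members and of Malat1 in 2 DBA/2J and 3 C57BL/6J arrays; circles are female pools, triangles male pools and lines means. The strains do not overlap in any panel, Sf3b1 being at 9.73 or more in DBA/2J and at 9.27 or less in C57BL/6J.

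The Sf3b1 difference belonged to 1 of its 4 probe sets, and this probe set followed Malat1, an abundant long RNA that is retained in nuclear speckles. Malat1 (1438403_s_at) had 10.54 and 11.14 in DBA/2J, against 9.97, 9.59 and 9.55 in C57BL/6J, a difference of 1.62 ± 0.390 (adjusted p = 0.0027). Its level was not reproducible within strains, with an intraclass correlation of -0.0028 and an adjusted p of 0.58 over all strains. Over the 100 strain levels Sf3b1 1418562_at correlated with Malat1 with r = 0.662 and rho = 0.644 (permutation p = 1e-05 for both, the smallest possible, adjusted p = 2.0e-04 over the 138 members), 0.610 without the 2 strains of the most extreme Malat1 level. Over arrays within single batches r was 0.449 to 0.802, and over the residuals of 199 arrays after removal of strain, sex and batch it was 0.697. The brightest Sf3b1 probe set, 1449138_at, had a residual r of -0.167. In the last comparison below, 1418562_at was not called as apart from 1449138_at. Malat1 was 1 of a list of 10 nuclear-retained RNAs, of which 3 were higher in DBA/2J, Malat1, Rian (0.740 ± 0.216, adjusted p = 0.018) and Kcnq1ot1 (0.460 ± 0.135, adjusted p = 0.018). Another 3 were lower, Snhg11 (-1.21 ± 0.152, adjusted p = 2.3e-09), Snhg14 (-1.06 ± 0.226, adjusted p = 5.8e-04) and Neat1 (-0.915 ± 0.105, adjusted p = 7.9e-11), so the list did not move in 1 direction.

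Of the 138 members, 5 (3.62%) had a residual r with Malat1 of 0.5 or more, a cut chosen after the values were seen, a share near the 3.21% of all 45036 probe sets beside Malat1. Below -0.2 lay 51 members (37%), against 21.8% of all, and the median was -0.140, against 0.0063. Over the strain levels 18 members passed the adjusted test of r, 11 with a positive and 7 with a negative r. The same test was not run over all probe sets, so this count has no array share beside it and is not a result particular to the members. Beside Sf3b1, the residual r was 0.5 or more for Hnrnpr 1438807_at (residual 0.686; r = 0.582, rho = 0.60, 0.544 without the 2 strains, 0.545 to 0.747 within batches), Hnrnpab 1426114_at (residual 0.614; r = 0.467, rho = 0.454, 0.440, and 0.129 to 0.751), Hnrnpu 1450849_at (residual 0.557; r = 0.471, rho = 0.392, 0.431, and -0.027 to 0.849) and Srsf11 1439095_at (residual 0.551; r = 0.479, rho = 0.481, 0.447, and 0.459 to 0.708). For these 4 the permutation p of r was 1e-05 (adjusted 2.0e-04), and that of rho likewise except Hnrnpu (6e-05, adjusted 0.001). The 5 correlated among themselves with residual r of 0.281 to 0.802. They were picked by their r with Malat1 on the same residuals, so this is no separate evidence of a group. Strain levels average the same arrays, so the strain-level r of these 5 and its permutation p-values are no separate evidence either. The permutations also treated related strains as exchangeable. Of the 5, Sf3b1 and Hnrnpr were called between the parents. With Malat1 as a covariate, an alternative chosen after the data were seen, Sf3b1 had a difference of 0.361 (adjusted p = 0.17) and Hnrnpr of 0.0503 (adjusted p = 0.90), and the 2 members still called, against 2.9% of all probe sets, were Sf3b3 (0.40, adjusted p = 0.0038) and Srsf10 (0.348, adjusted p = 0.046), both higher in DBA/2J. The 3 members lower in DBA/2J were no longer called either, with differences of -0.187 for Snrpd3 (adjusted p = 0.065), -0.204 for Snrpc (adjusted p = 0.066) and -0.273 for Hnrnpab (adjusted p = 0.17). What moves Malat1 and these probe sets together was not tested, and where they lie in their genes was not analysed here.

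**Figure D4:**
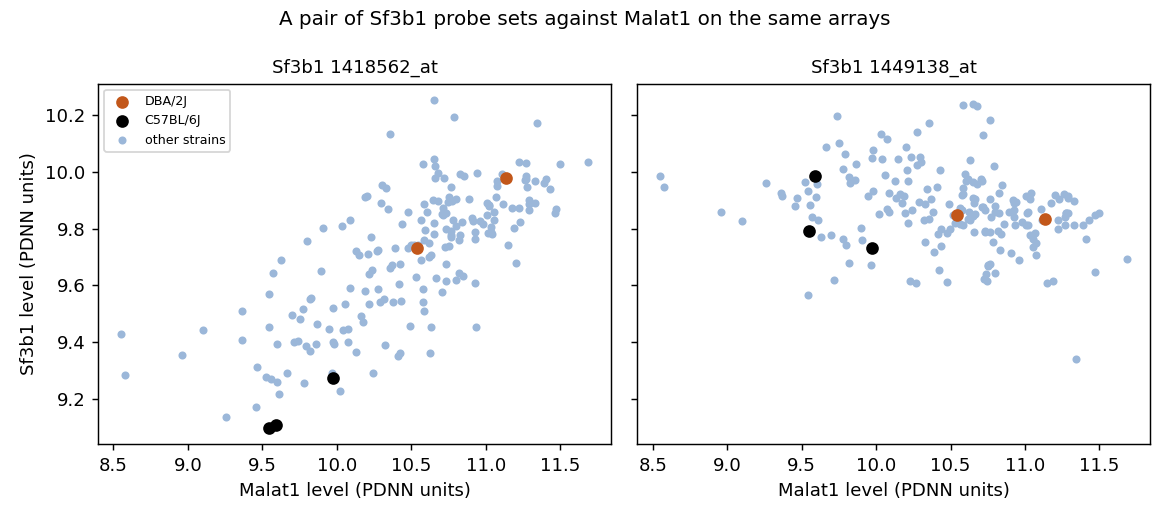
Level of a pair of Sf3b1 probe sets (y axis, PDNN units) against Malat1 (x axis, PDNN units) on the same 199 arrays, with DBA/2J orange, C57BL/6J black and other strains blue. Probe set 1418562_at on the left climbs with Malat1 (residual r = 0.697) and 1449138_at on the right does not (-0.167).

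The fourth comparison set the 4 wild-derived strains against the 13 classical ones, with strains as replicates. By limma 4 member probe sets (2.9%) were called, against 3.9% of all probe sets, 1 of them higher (1.92% of all were) and 3 lower (1.99%). The share was near the background.

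Sf3b3 (1430075_at) had strain levels of 7.63 in CAST/EiJ, 7.81 in PWD/PhJ, 7.73 in PWK/PhJ and 8.35 in WSB/EiJ, against 8.11 to 8.50 in classical strains with a median of 8.38. Only WSB/EiJ overlapped the classical range, and the difference was -0.482 ± 0.0921 (SE, adjusted p = 0.011). The other, brighter Sf3b3 probe set (mean 8.83) was not called, and the r between both over strain levels was 0.233. Srsf12 had 7.75 to 8.40 in wild-derived strains, against 8.30 to 8.75 in classical strains (-0.474 ± 0.0927, adjusted p = 0.012), and Snrpd3 (1422885_at) had 7.88 to 8.23, against 8.14 to 8.33 (-0.187 ± 0.0446, adjusted p = 0.028). Both ranges overlapped. Hnrnpl (1424101_at) was higher, with 9.02 to 9.39 in wild-derived strains, against 8.17 to 9.38 in classical strains (0.606 ± 0.167, adjusted p = 0.0499). This call was lost in 19 of 30 other settings, and the probe set did not pass the test over all strains.

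CAST/EiJ had 1 array, with an ACTB 3'/5' ratio of 2.74 and an RMA outlier share of 0.14. Without that strain 1 member was called, against 1.69% of all probe sets, and without PWD/PhJ also 1, against 0.544%. Without KK/HIJ it was 8 members, against 9.24%. Without all arrays of an outlier share of 0.1 or more it was 0 members by limma, against 1.41%. In that setting 13 members had an unadjusted p under 0.05. Quantile normalization gave 7 calls, 4 higher and 3 lower, against 3.73% of all probe sets. Over all 100 strains CAST/EiJ was highest in 19 members (13.8%), against 9.75% of all probe sets, and lowest in 12 (8.7%), against 7.67% of all and 13.2% of those of mean level 8 or more.

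Male and female pools did not differ detectably in any member. None of the 138 was called by limma, against 0.118% of all probe sets, and 7 had an unadjusted p under 0.05. The smallest of these p-values belonged to Srsf6 (1416720_at), which was higher in males by 0.0403 ± 0.0123 PDNN units (adjusted p = 0.68).

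The last comparison asked which probe sets varied apart from the brightest probe set of their gene. Each of 92 further member probe sets was set against it over the 100 strain levels. The median r was 0.437, against 0.214 for 16752 such probe sets of the whole array, and the members ran from -0.429 to 0.987. At 0.5 or more lay 40 of 92 (4122 of 16752 on the array), below 0.2 lay 27 (8148) and below 0 lay 15 (5111). These r values share arrays and depend on brightness. They are given as a description.

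**Figure D5:**
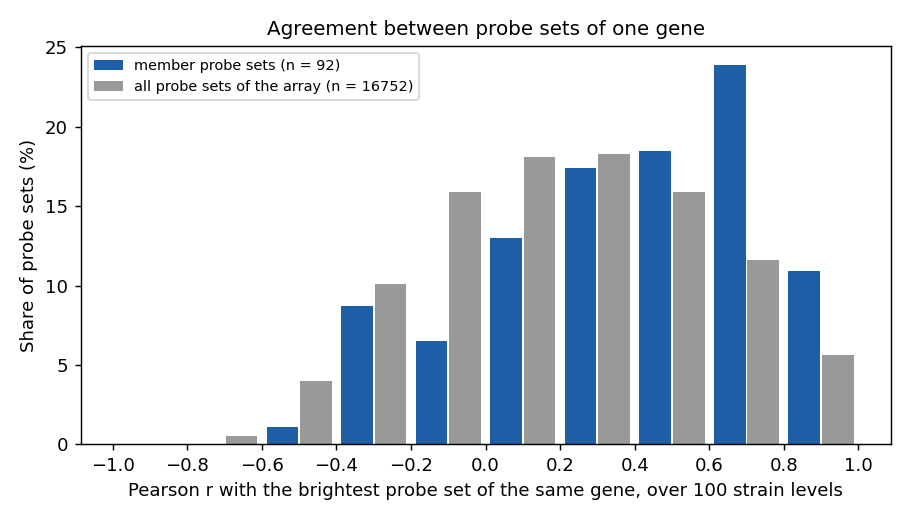
Share of probe sets (y axis, %) by Pearson r with the brightest probe set of the same gene over 100 strain levels (x axis), for 92 member probe sets and 16752 of the whole array. The members are shifted to higher r, with a median of 0.437 against 0.214.

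The strongest agreement was in Hnrnpf, where 1437099_x_at followed 1456664_x_at with r = 0.987, in Srsf1 (1434972_x_at, 0.935), Srsf3 (1416152_a_at, 0.896) and Hnrnpdl (1420093_s_at, 0.865). The lowest r belonged to Hnrnpc (1458139_at, -0.429), Sf3b2 (1429362_a_at, -0.376), Snrpd3 (1422884_at, -0.351) and Hnrnpab (1459880_at, -0.307). In Sf3b2, 4 of 6 further probe sets had an r below 0.

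In the test on per-array differences 21 of 92 member probe sets (22.8%) of 15 genes were called by limma, against 21.4% of the array, a share near the background. The smallest adjusted p-values were those of Hnrnpc 1418693_at against 1460240_a_at (2.1e-11, r = 0.421) and Snrpb2 1426613_a_at against 1452422_a_at (8.1e-10, r = 0.390), followed by Hnrnpr 1429232_at (9.4e-06, r = 0.520) and Hnrnpab 1448144_at (2.0e-05, r = 0.341). For Hnrnpc the strain SD was 0.167 on 1418693_at and 0.0950 on 1460240_a_at. For Snrpb2 the strain call belonged to 1452422_a_at (adjusted p = 1.0e-08), while 1426613_a_at did not pass (0.33). Hnrnpc 1418693_at, Snrpb2 1426613_a_at, Hnrnpr 1429232_at and Srsf2 1452439_s_at passed this test under every alternative.

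In 3 genes the probe set that stood apart also had an r below 0.2. Srsf6 1416720_at had a mean of 9.27, close to the 9.34 of the brightest probe set, yet followed it with r = 0.0314 (adjusted p = 2.3e-05). It was lowest in BXD51 at 9.14 and highest in BXD73 at 9.60, with arrays of 9.04 and 9.24 in BXD51 and 9.64 and 9.53 in BXD73. Snrpc 1444655_at, at a mean of 7.89, had r = -0.229 with 1416197_at (adjusted p = 3.4e-04) and did not vary detectably among strains (adjusted p = 0.41). Sf3b5 1439370_x_at, at 7.95, had r = 0.183 with 1437972_s_at (adjusted p = 0.0038) and was itself called in the BXD panel.

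Also apart were 2 further Srsf6 probe sets and 2 each of Srsf1, Sf3b1 (1440818_s_at and 1418561_at) and Hnrnpa2b1. With them came 1 each of Srsf2, Snrpb2 (1452131_at), Hnrnpdl, Hnrnpd, Srsf10 and Srsf3, all at adjusted p-values of 1.7e-04 to 0.045 by limma. The Sf3b1 probe set that followed Malat1, 1418562_at, was not among these calls. By the type of sequence a probe set was designed on, 14 of 47 probe sets classed as expressed sequence tags stood apart. So did 3 of 16 from RefSeq messenger RNAs, 3 of 17 from other cDNAs and 1 of 12 with none listed. The median r was 0.458, 0.652, 0.253 and 0.361 in that order. The class of expressed sequence tags took every listed sequence not recognised as one of the other types. No array share by type was computed, so these counts are not a result about the members. Whether any of these probe sets lies in an intron or at a late 3' end was not analysed here, since the files give no probe positions.

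Other splicing genes were counted from lists, each gene through its brightest probe set. Over all strains 10 of 49 other spliceosome genes (20.4%) were called, 15 of 58 other splicing regulators (25.9%), 0 of 9 SR protein kinases and 2 of 10 snRNP assembly genes, against 10 of 46 member genes (21.7%) and 24.7% of all genes. The spliceosome genes with the highest intraclass correlations were Sf1, which binds the branch point before U2 arrives (0.714), and Phf5a, an SF3B subunit (0.701). Phf5a was also lower in DBA/2J, by -0.333 ± 0.0734 (adjusted p = 8.7e-04), and Prpf6, a U5 protein, by -0.273 ± 0.0861 (adjusted p = 0.032).

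Of the 58 other splicing regulators 6 were higher in DBA/2J than in C57BL/6J and 1 was lower, against 478 higher (2.63%) and 563 lower (3.09%) of all 18193 genes. Rbfox2, an exon regulator, was higher by 1.65 ± 0.417 (adjusted p = 0.0047), Srrm2, a speckle protein, by 0.784 ± 0.228 (adjusted p = 0.018) and Elavl2, a neuronal RNA binder, by 0.583 ± 0.116 (adjusted p = 2.0e-04). Khdrbs1, an exon regulator, was lower by -0.472 ± 0.0980 (adjusted p = 3.8e-04). Marker genes of other cell types varied among strains in these tissues as well, with 6 of 8 pyramidal, 6 of 8 dentate granule, 6 of 7 oligodendrocyte, 3 of 6 astrocyte, 7 of 8 choroid plexus and 4 of 6 thalamic markers called. In DBA/2J 6 of 7 oligodendrocyte markers were lower than in C57BL/6J. The part of tissue composition in the members' levels was not tested.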

How the data were processed

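Hippocampal RNA pools of 100 mouse strains were measured on 201 Affymetrix M430 2.0 arrays. The authors deposited a PDNN score per probe set and array, which was analysed as deposited; per the labels each array was rescaled to an average of 8 units with SD 2, which the values do not show. RMA and MAS5 scores were also deposited and served as alternatives. No source used here gives software versions, and arrays have no counting depth, so their number limits the precision.

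Groups came from the labels. After removal of 64 control probe sets, averaging of a labelled B6D2F1 duplicate and removal of 1 mixed-sex BXD9 array, 199 columns were fitted with strain, sex and batch (107 terms, 92 residual degrees of freedom) in limma 3.58.1 and R 4.3.3, with data.table (1.17.8). The BXD, CXB and parent tests shared the spread of all strains. Wild-derived and classical strains were compared over strain levels. Per-array differences from the brightest probe set were fitted likewise. Tests were two-sided, with Benjamini-Hochberg adjustment over the whole array and a threshold of 0.05. The models were checked on simulated data.

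The annotation gave 1 symbol to 34945 probe sets, several to 932 and none to 9160, and 6 strains had 1 fitted array. Members, lists, tests and alternatives were chosen with earlier results of these data known. Named were, per comparison, the 12 largest rises and falls, for strain effects the 20 widest calls, each member gene once with its level, members apart with an r under 0.2, and the 5 probe sets most like the 3 widest calls. The alternatives were the RMA, MAS5 and series values, leaving out the batch term, quantile normalization and a minimum mean of 8. Further ones were removal of outlying or mislabelled arrays, 4 residual components, the ACTB ratio, age and averaged substrains. The last were the duplicate used separately, another within-gene baseline, and single arrays or strains left out. The series values are the same as the PDNN scores, so that setting could change no call.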

Additional observations from a re-analysis of the deposited data

How the results depend on the processing

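The number of member probe sets called stayed within 1.5 times the reported number under most settings. Each percentage is the share of the whole array called under the same setting. With RMA values it was 4 between the parents (4.47%), 1 between wild-derived and classical strains (2.15%) and 10 for probe sets apart (15%). With MAS5 values it was 14 over all strains (14.7%), 4 in the BXD panel (5.02%) and 10 apart (11.4%). A mean of 8 or more left 5 in the BXD panel (9.24%). Quantile normalization gave 14 in the BXD panel (7.76%), 12 between the parents (8.72%) and 7 for wild-derived strains (3.73%). Without the batch term it was 51 over all strains (25%), 2 in the CXB panel (3.26%), 4 between the parents (3.29%) and 33 apart (28.5%). Without arrays of an outlier share of 0.1 or more it was 15 over all strains (15.5%) and, by limma, 0 for wild-derived strains (1.41%, with 13 members at an unadjusted p under 0.05). With the ACTB ratio it was 3 in the CXB panel (4.41%) and 7 for wild-derived strains (10.4%). With 4 residual components, which by construction remove variance between arrays of a strain and leave strain levels, it was 135 over all strains (90%), 122 in the BXD panel (73.8%), 108 in the CXB panel (64.6%), 26 between the parents (20%), 15 between sexes (4.4%) and 84 apart (89.3%). Settings chosen after seeing the data gave 2 between the parents with Malat1 as a covariate (2.9%), 13 with the BXD panel alone (8.38%), 0 by limma with the CXB panel alone (1.09%, with 15 members at an unadjusted p under 0.05), 1 in the CXB panel without CXB2 (3.08%) and 7 in the BXD panel without BXD14 (6.72%). The causes were not tested.

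Leaving out single arrays or strains gave 27 to 36 calls over all strains, 8 to 9 in the BXD panel, 4 to 13 in the CXB panel, 1 to 8 between the parents, 1 to 8 for wild-derived strains, 0 to 0 between sexes and 18 to 22 apart. For wild-derived strains the whole array moved as well, with 0.544% of probe sets called without PWD/PhJ and 9.24% without KK/HIJ. Of the single probe sets named, 1 changed direction, Srsf10 1449121_at between the parents, at -0.0399 with RMA values. Of 74 named results 36 lost the call with RMA values (72 could be computed) and 38 with MAS5 values (71). Without arrays of high outlier share 25 lost it. The series value table lost 0, but it held the same values as the PDNN scores, with 0 of 9065301 cells differing. That outcome was therefore fixed in advance. Among RMA columns 193 of 197 were most like the PDNN column of the same array. The 3 C57BL/6J columns were most like BALB/cJ arrays and 1 BXD14 column was most like a BXD45 array. The RMA comparison of the parents thus rests on C57BL/6J columns that do not match their PDNN columns. No paired analysis was possible because the labels carry no replicate numbers for a block, while the strain term already set male against female pools within strains.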
